A study of Mus musculus with 3 samples.

Results

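The genes described here encode the receptors, ligands and shared adaptor through which cells respond to bacterial lipopolysaccharide (LPS), interleukin-1 (IL-1) and tumor necrosis factor (TNF). They are Tlr4, Cd14, Ly96, Tlr2, Myd88, Il1b, Il1r1, Tnf, Tnfrsf1a and Tnfrsf1b, taken by symbol, 10 of the 31053 genes listed for each library. All 10 were found in the files, each with UMIs (unique molecular identifiers, which count captured transcripts) in every library. Their levels were read in cells of mouse dorsal root ganglia (DRGs), the ganglia beside the spinal cord that hold the cell bodies of sensory neurons.

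There were 3 libraries of single-cell RNA sequencing (10x Genomics 3′ chemistry, version 3), 1 from naive animals, 1 from animals at 7 days and 1 at 14 days after spared nerve injury (SNI), a traumatic injury of the sciatic nerve. All animals were male C57BL/6J mice of 13 postnatal weeks, SNI was made in both hindlegs, and the L3 and L4 DRGs of both sides were pooled from 2 mice (8 DRGs) for each library and dissociated with collagenase and dispase. Each condition was therefore 1 library, so differences between conditions carry no replicate spread, no test between conditions was possible, and library, preparation and condition cannot be told apart. The intervals below are 95% intervals for counting error only: exact Poisson for levels in CPM (a gene's UMIs in a class scaled to a class total of 1e6 UMIs), exact Clopper-Pearson for shares of cells, and exact conditional binomial for ratios of CPM.

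Toll-like receptor 4 (Tlr4) recognises LPS together with its co-receptor MD-2, which Ly96 encodes, and CD14 hands LPS to that complex. TLR2 responds to bacterial lipoproteins, and TLR2, TLR4 and the IL-1 receptor IL1R1 all signal through the adaptor MyD88 to NF-kB. TNF reaches NF-kB by another route, through TNFR1 (Tnfrsf1a), which many cell types carry, and TNFR2 (Tnfrsf1b), which is known mainly from immune and endothelial cells. In sensory ganglia, macrophages, endothelium and nociceptive neurons are the cells usually discussed as responders, and IL-1beta and TNF are classical products of activated myeloid cells.

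Of 11937 barcodes, 9572 cells were kept, 3123 from the naive, 2650 from the day 7 and 3799 from the day 14 library, with median depths of 3059, 3972 and 4174 UMIs. Marker genes placed 9124 cells in 12 classes, and 448 cells were not assigned. The class with C1qa, Csf1r, Mrc1 and other macrophage markers held 64 cells of the naive, 208 of the day 7 and 247 of the day 14 library, which is 2.05%, 7.85% and 6.50% of the cells. The neutrophil-like class had only 13, 16 and 25 cells and the monocyte-like class 5, 3 and 4, so neither entered a ratio. Depth in the neuron-like class was uneven, with medians of 63705, 2654 and 80235 UMIs in 129, 188 and 144 cells, because 131 of the day 7 neurons had under 10000 UMIs. Barcode sequences were shared between libraries 1 time (naive and day 7), 6 times (naive and day 14) and 2 times (day 7 and day 14).

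The start regions of 3 of these genes are shown because they carry the sequence elements for which inflammatory ligands and Toll-like receptors are known. They are 50-base stretches from RefSeq promoters (build GRCm38.p6), all on the minus strand and written 5′ to 3′ toward the gene. Capitals mark the NF-kB consensus in Tlr2 and the TATA box core, TATAAA, in Il1b and Tnf.
Tlr2, chr3:83841749-83841798, from 190 to 141 bases before the start: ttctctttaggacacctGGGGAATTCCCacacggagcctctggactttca
Il1b, chr2:129371150-129371199, from 60 to 11 bases before the start: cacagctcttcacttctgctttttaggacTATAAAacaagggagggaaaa
Tnf, chr17:35202018-35202067, from 60 to 11 bases before the start: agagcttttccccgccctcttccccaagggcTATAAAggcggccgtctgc
Promoter windows of 300 bases, 250 before to 50 after the start, were searched on both strands for 7 of the 10 genes, not for Tlr4, Cd14 and Ly96. The TATA core lay 31 bases before the start of Il1b and 29 before that of Tnf, and 1.99% of 32851 mouse promoters held it in the sense direction between 20 and 40 bases before the start. On either strand and at any position, 13.6% of promoters held TATAAA. The NF-kB consensus, which in Tlr2 matched at overlapping positions starting 173 and 172 bases before the start, was found in 6.93% of promoters. Tlr2 held a further match at 8 bases and Il1r1 at 232 bases before the start, and Myd88 held TATAAA at 164 and 160 bases. GENCODE vM21 places the Tlr2 start at 83841767, inside the printed stretch, so the Tlr2 distances hold for the RefSeq start only. These matches describe the letters and were not linked to any measured binding.

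The levels were ordered among the classes with at least 50 cells (the plot of CPM by class and library). Some genes were highest there in macrophage-like cells and others in the vessel wall and connective tissue. In each of the 3 libraries, 7 of the 10 genes had their highest CPM in the macrophage-like class among these classes: Tlr4, Cd14, Ly96, Tlr2, Il1b, Tnf and Tnfrsf1b. Smaller classes were left out of this order. In the neutrophil-like class, which was left out, the CPM of Il1b and Tnf was above that of macrophage-like cells. Myd88 was highest in mural-like cells, the pericytes and smooth muscle cells of vessels, Il1r1 in fibroblast-like cells and Tnfrsf1a in endothelial-like cells. For Myd88 the interval of the mural-like class overlapped that of the macrophage-like class in all libraries. For Tnfrsf1a the endothelial-like and fibroblast-like intervals overlapped at days 7 and 14. For Il1r1 the fibroblast-like and mural-like intervals overlapped in the naive library. No ratio between classes was computed, so the order of these overlapping neighbours is left undecided. In the naive library the macrophage-like Tlr4 level also overlapped that of the non-myelinating Schwann-like class, which rested on 2 UMIs.

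**Figure D1:**
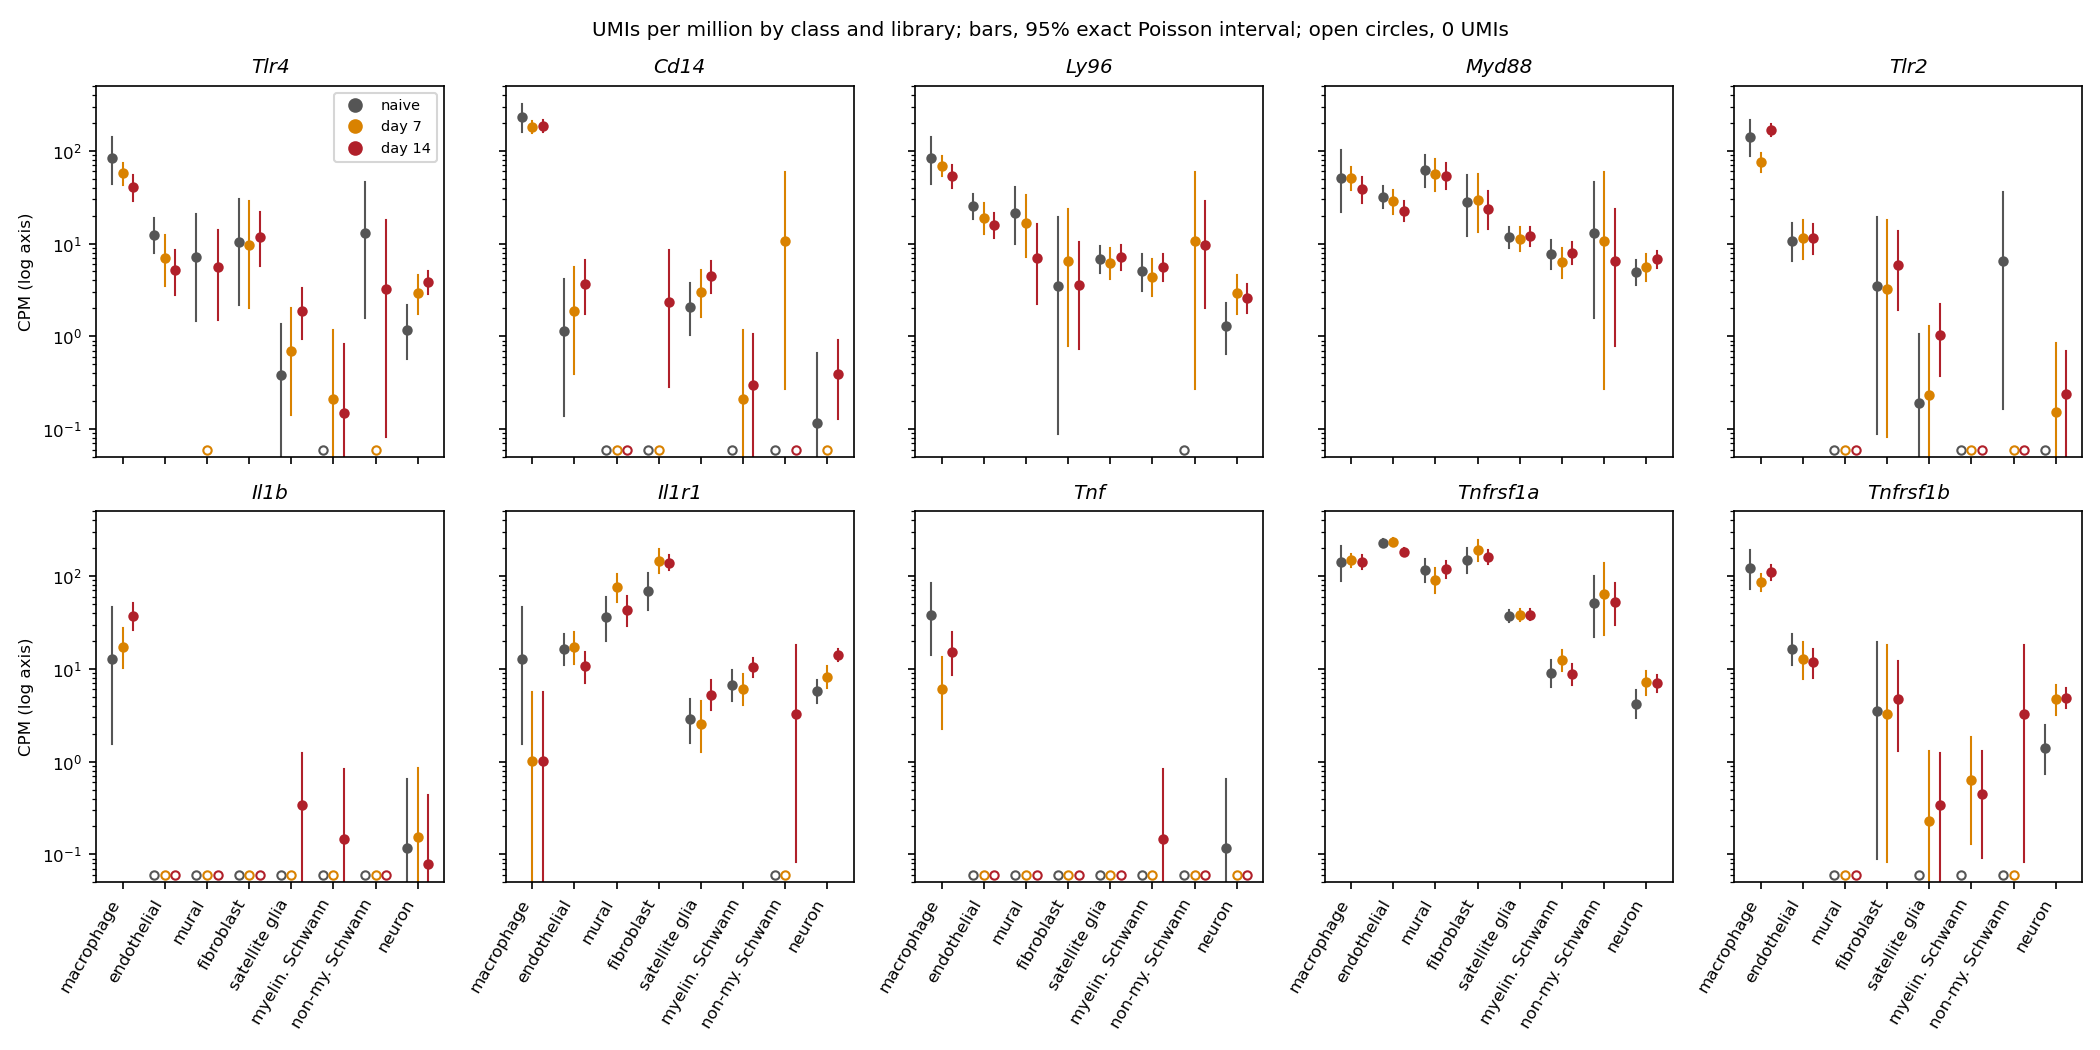
Level of each of the 10 genes in CPM (log axis starting at 0.05, on which bars are cut at the bottom) by cell class in the naive, day 7 and day 14 libraries, with exact 95% Poisson intervals for counting error and open circles where no UMI was counted. Cd14, Tlr2 and Tnfrsf1b stand highest in macrophage-like cells, Il1r1 in fibroblast-like cells and Tnfrsf1a in endothelial-like cells in every library.

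Cd14 was the most restricted receptor of the LPS complex. In macrophage-like cells its level was 230 CPM (161 to 319) in the naive, 180 CPM (154 to 208) in the day 7 and 185 CPM (159 to 214) in the day 14 library, from 36, 176 and 183 UMIs. That class held 70.6%, 87.6% and 77.9% of all Cd14 UMIs of the 3 libraries. The intervals of the 3 levels overlapped, and the ratios to naive were 0.780 (0.543 to 1.15) at day 7 and 0.803 (0.559 to 1.18) at day 14. Myelinating Schwann-like cells, which should lack Cd14, held 0, 1 and 2 of its UMIs among 1366, 1156 and 1647 cells with median depths of 2491, 3571 and 3585 UMIs, against shares of positive macrophage-like cells of 35.9%, 53.8% and 44.9% at medians of 2152, 4290.5 and 3498 UMIs. When each cell was thinned to 2000 UMIs, these macrophage-like shares were 38.5%, 32.1% and 30.3% (36, 170 and 195 cells deep enough), so no order among the libraries is read from the shares.

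Tlr4, the signalling receptor, stood at 83.2 CPM (44.3 to 142), 57.2 CPM (43.2 to 74.2) and 40.4 CPM (28.9 to 55.1) in the macrophage-like cells of the naive, day 7 and day 14 libraries. The naive value rested on 13 UMIs in 13 cells, against 56 UMIs at day 7 and 40 at day 14. The level was lower at day 14, with a ratio to naive of 0.486 (0.255 to 0.991), while the day 7 ratio was 0.687 (0.371 to 1.37). Ly96 showed 83.2 CPM, 68.4 CPM and 53.6 CPM in the same cells, from 13, 67 and 53 UMIs, with ratios of 0.822 (0.450 to 1.62) and 0.644 (0.346 to 1.29). All 3 transcripts of the complex were detected together in 0 of 64, 8 of 208 (3.85%) and 3 of 247 (1.21%) macrophage-like cells, where 0 of 64 leaves an exact upper limit of 5.60% (4.69% by the limit of 3 counts of the total). At least 1 of Cd14, Tlr4, Ly96 and Tlr2 was detected in 68.8%, 72.6% and 70.4% of macrophage-like cells, against 23.2%, 24.2% and 24.4% of endothelial-like cells.

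In endothelial-like cells Tlr4 and Ly96 were both read at levels below those of macrophage-like cells. Endothelial-like Tlr4 was 12.5 CPM (7.82 to 18.9) in the naive, 6.96 CPM (3.48 to 12.5) in the day 7 and 5.13 CPM (2.80 to 8.60) in the day 14 library, from 22, 11 and 14 UMIs. It was lower at day 14, with a ratio to naive of 0.411 (0.194 to 0.839). Ly96 stood at 25.5, 19.0 and 15.7 CPM in these cells, the same order of libraries, without reaching 2-fold. Cd14 was sparse in them, with 2, 3 and 10 UMIs in 297, 207 and 328 cells, so that the endothelial-like class held transcripts of the receptor and its co-receptor with little Cd14. Across the 7 genes with enough UMIs there, none was past 2-fold at day 7, where 3.22% of all tested genes were, and only Tlr4 at day 14, where 4.63% were. Here and below a gene was tested in a class when it had at least 20 UMIs over the 2 libraries compared, and counted as higher or lower when its CPM ratio was at least 2-fold. The heat shock gene Hspa1b, a marker of dissociation stress, was lower in the same endothelial-like cells, at 287, 53.8 and 34.1 CPM. Fos, an immediate early gene of the same list, was at 18.2, 27.2 and 46.5 CPM, higher at day 14, and the part of dissociation in the Tlr4 difference was not tested.

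Satellite glial-like cells, which wrap the neuronal cell bodies, held few transcripts of the LPS complex. Cd14 gave 11, 13 and 26 UMIs in 789, 514 and 731 such cells, levels of 2.09, 3.00 and 4.44 CPM in the naive, day 7 and day 14 libraries. The day 14 ratio of 2.12 (1.01 to 4.75) made Cd14 the 1 higher gene of 5 tested at day 14, where 3.36% of all genes were past 2-fold, and at day 7 it was 0 of 5 against 2.3%. The 8 macrophage markers summed to 5.52, 19.4 and 58.7 CPM in these same glial-like cells, and C1qa to 6, 19 and 91 UMIs. For each C1qa UMI there were 1.83, 0.684 and 0.286 Cd14 UMIs in satellite glial-like cells, against 0.0395, 0.0332 and 0.0350 in macrophage-like cells. The part of macrophage-like RNA in the glial-like Cd14 level was not tested. In myelinating Schwann-like cells 0 of 4 tested genes passed 2-fold at either time, beside 2.61% and 3.21% of all genes, and in non-myelinating Schwann-like cells 0 of 1 at day 14, beside 14.1%.

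Tlr2 differed between the day 7 and day 14 libraries. In macrophage-like cells it stood at 141 CPM (88.2 to 213) in the naive, 75.6 CPM (59.3 to 94.8) in the day 7 and 169 CPM (144 to 196) in the day 14 library, from 22, 74 and 167 UMIs. The day 7 level was thus the lowest and its interval did not meet that of day 14. The ratio to naive was 0.537 (0.330 to 0.908) at day 7, short of 2-fold, and 1.20 (0.766 to 1.97) at day 14, while day 14 over day 7 was 2.23 (1.69 to 2.98). Il1b, on 17 and 37 UMIs, had a day 14 over day 7 ratio of 2.15 (1.18 to 4.08), and Tnf, on 6 and 15 UMIs, one of 2.48 (0.908 to 7.79), while the other genes with over 2 UMIs in these libraries lay between 0.707 and 1.28. The macrophage-like share of all Tlr2 UMIs was 42.3%, 69.2% and 73.2%, and myelinating Schwann-like cells held 0 Tlr2 UMIs in all 3 libraries, which at these depths allows, by the limit of 3 counts of the total, up to 0.220%, 0.260% and 0.182% of cells with a UMI. Endothelial-like Tlr2 was nearly the same in the 3 libraries, at 10.8, 11.4 and 11.4 CPM.

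Myd88, the common adaptor, was spread over vessel-wall, macrophage-like and fibroblast-like cells. Mural-like cells held 62.2 CPM (40.6 to 91.1), 56.6 CPM (37.3 to 82.4) and 54.0 CPM (38.4 to 73.8) in the naive, day 7 and day 14 libraries. Macrophage-like cells held 51.2, 51.0 and 38.4 CPM, fibroblast-like cells 27.9, 29.3 and 23.7 CPM, and neuron-like cells 4.94, 5.65 and 6.79 CPM. Myd88 was past 2-fold in no class at either time. The annotation places it over 2 neighbouring genes, Slc22a14 and Acaa1a, 1 of them on its own strand, so reads in the overlap are uncertain.

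Il1b, the gene of the secreted ligand IL-1beta, was counted mostly in neutrophil-like cells. These gave 24 UMIs in 5 of 13 cells of the naive library, 943 CPM (604 to 1403). At day 7 there were 34 UMIs in 5 of 16 cells, 732 CPM (507 to 1024), and at day 14 there were 138 UMIs in 16 of 25 cells, 2647 CPM (2223 to 3127). These few cells carried 80.0%, 56.7% and 71.1% of all Il1b UMIs, and the day 14 level lay above the intervals of both other libraries. Single cells weighed heavily, with 9, 15 and 26 UMIs in the richest cell. Where cells were grouped by clustering in place of marker genes, the neutrophil-like levels were 288, 187 and 952 CPM, in the same order. Il1b has an antisense neighbour, Il1bos, on the opposite strand, and whether counting used strand is not given in the sources used here.

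In macrophage-like cells Il1b was rare. The levels were 12.8 CPM (1.55 to 46.2), 17.4 CPM (10.1 to 27.8) and 37.4 CPM (26.3 to 51.6) in the naive, day 7 and day 14 libraries, from 2 UMIs in 2 cells, 17 UMIs in 7 cells and 37 UMIs in 15 cells. The day 14 level was 2.92-fold that of naive, with an interval from 0.754 to 25.0 that includes no difference, and the gene reached the 20-UMI limit only through the day 14 library. Neutrophil markers summed to 109, 97.0 and 169 CPM in these macrophage-like cells, with 6, 1 and 3 of the 7 markers at 0, and their part in the Il1b level was not tested.

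**Figure D2:**
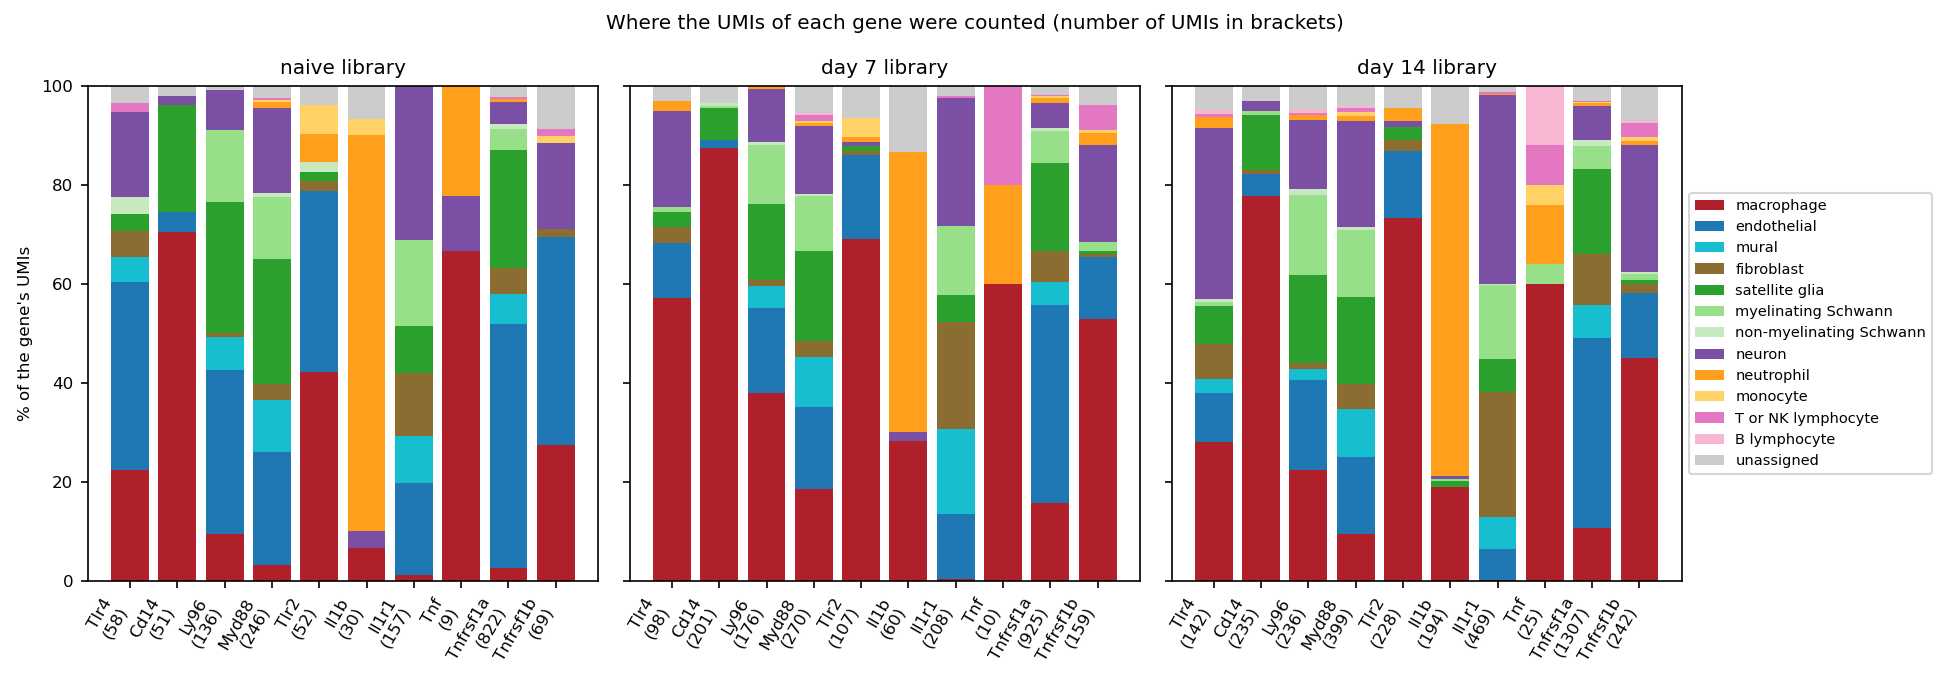
Share of each gene's UMIs, in percent, that came from each cell class in the naive, day 7 and day 14 libraries (stacked bars, 1 per gene and library). The macrophage-like segment of Cd14 makes up 70.6% to 87.6% of its bars, the neutrophil-like segment of Il1b 56.7% to 80.0%, and the endothelial-like segment of Tnfrsf1a 38.3% to 49.3%.

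Il1r1, the receptor for IL-1beta, had its highest CPM in fibroblast-like cells among the classes with at least 50 cells. They held 69.8 CPM (42.7 to 108) in the naive, 147 CPM (107 to 196) in the day 7 and 140 CPM (116 to 167) in the day 14 library, from 20 UMIs in 13 cells, 45 in 22 cells and 118 in 58 cells. Both injured libraries were higher, by 2.10-fold (1.21 to 3.75) at day 7 and 2.00-fold (1.24 to 3.39) at day 14. Il1r1 was the 1 gene past 2-fold of 2 tested at day 7 and of 3 tested at day 14 in this class, where 8.08% and 9.33% of all genes were. The richest fibroblast-like cell held 4, 6 and 19 of these UMIs. Fos was higher in the same class, at 101, 251 and 268 CPM, while the heat shock gene Hspa1b of the same list was lower, at 105, 19.5 and 29.6 CPM. The part of dissociation was not tested.

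Mural-like cells were next in order for Il1r1, with 35.9 CPM (20.1 to 59.1), 75.5 CPM (52.9 to 105) and 42.9 CPM (29.2 to 60.9). Here the day 7 library was higher by 2.11-fold (1.12 to 4.14), and the day 14 ratio was 1.20. Il1r1 was the 1 gene of 3 tested past 2-fold at day 7 in mural-like cells, beside 5.34% of all genes, and 0 of 3 were at day 14, beside 6.16%. Macrophage-like cells, the highest class for most of the other genes, held only 2, 1 and 1 Il1r1 UMIs. Glial-like classes stayed low, with 2.85, 2.54 and 5.29 CPM in satellite glial-like and 6.76, 6.09 and 10.4 CPM in myelinating Schwann-like cells. The Il1r1 locus overlaps Gm38070 on the same strand, so reads in that overlap are uncertain.

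Tnf itself was close to the limit of detection. All cells together gave 9, 10 and 25 Tnf UMIs in the naive, day 7 and day 14 libraries, of which macrophage-like cells held 6 UMIs in 4 cells, 6 in 4 cells and 15 in 10 cells. Their levels were 38.4 CPM (14.1 to 83.6), 6.13 CPM (2.25 to 13.3) and 15.2 CPM (8.49 to 25.0). The level was lower at day 14 with a ratio of 0.395, and the interval from 0.145 to 1.24 includes no difference. At day 7 there were 12 UMIs over both libraries, under the limit for a ratio. Hspa1b stood at 365, 68.4 and 87.9 CPM in the same macrophage-like cells, and Fos at 141, 89.8 and 124 CPM. The summed immediate early and heat shock genes stood at 1388, 963 and 1013 CPM. The median log2 ratio to naive of the tested genes of that list was -0.06 at day 7 and 0.66 at day 14. Their part in the naive Tnf level was not tested. Neutrophil-like cells gave 2, 2 and 3 Tnf UMIs in class totals of 25452, 46420 and 52143 UMIs. Their Tnf CPM was thus above that of macrophage-like cells in each library, on too few UMIs to order the classes.

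Tnfrsf1a, which encodes TNFR1, gave the most UMIs of the 10 genes in every library (822, 925 and 1307 over all cells). Endothelial-like cells held 230 CPM (208 to 253) in the naive, 234 CPM (210 to 259) in the day 7 and 183 CPM (168 to 200) in the day 14 library, from 405, 369 and 501 UMIs. The day 14 interval lay below those of naive and day 7, with a ratio to naive of 0.798 (0.699 to 0.912), far short of 2-fold. Fibroblast-like cells held 150, 192 and 161 CPM, macrophage-like cells 141, 149 and 143 CPM, and mural-like cells 117, 90.2 and 119 CPM. Satellite glial-like cells held 37.3, 38.1 and 38.4 CPM, with a UMI in 20.7%, 25.5% and 25.2% of cells. No class was past 2-fold for Tnfrsf1a at either time.

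Tnfrsf1b, which encodes TNFR2, had its highest CPM in the macrophage-like class. Its levels there were 122 CPM (73.2 to 190), 85.8 CPM (68.4 to 106) and 110 CPM (90.5 to 133), with ratios of 0.705 (0.425 to 1.23) at day 7 and 0.906 (0.553 to 1.56) at day 14. Endothelial-like cells came after with 16.5, 12.7 and 11.7 CPM. All cells together gave 69, 159 and 242 Tnfrsf1b UMIs, of which macrophage-like cells held 19, 84 and 109. Endothelial-like cells held 29, 20 and 32 of them, more than macrophage-like cells in the naive library, and neuron-like cells 12, 31 and 62. Myelinating Schwann-like cells held 0, 3 and 3 Tnfrsf1b UMIs. Over the macrophage-like class as a whole, 0 of 7 tested genes passed 2-fold at day 7, where 13.6% of all genes did, and 3 of 9 at day 14, where 15% did, namely Il1b higher and Tlr4 and Tnf lower. The median log2 ratio of the tested genes was -0.36 at day 7 and -0.32 at day 14, beside 0.05 and 0.06 for all tested genes.

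**Figure D3:**
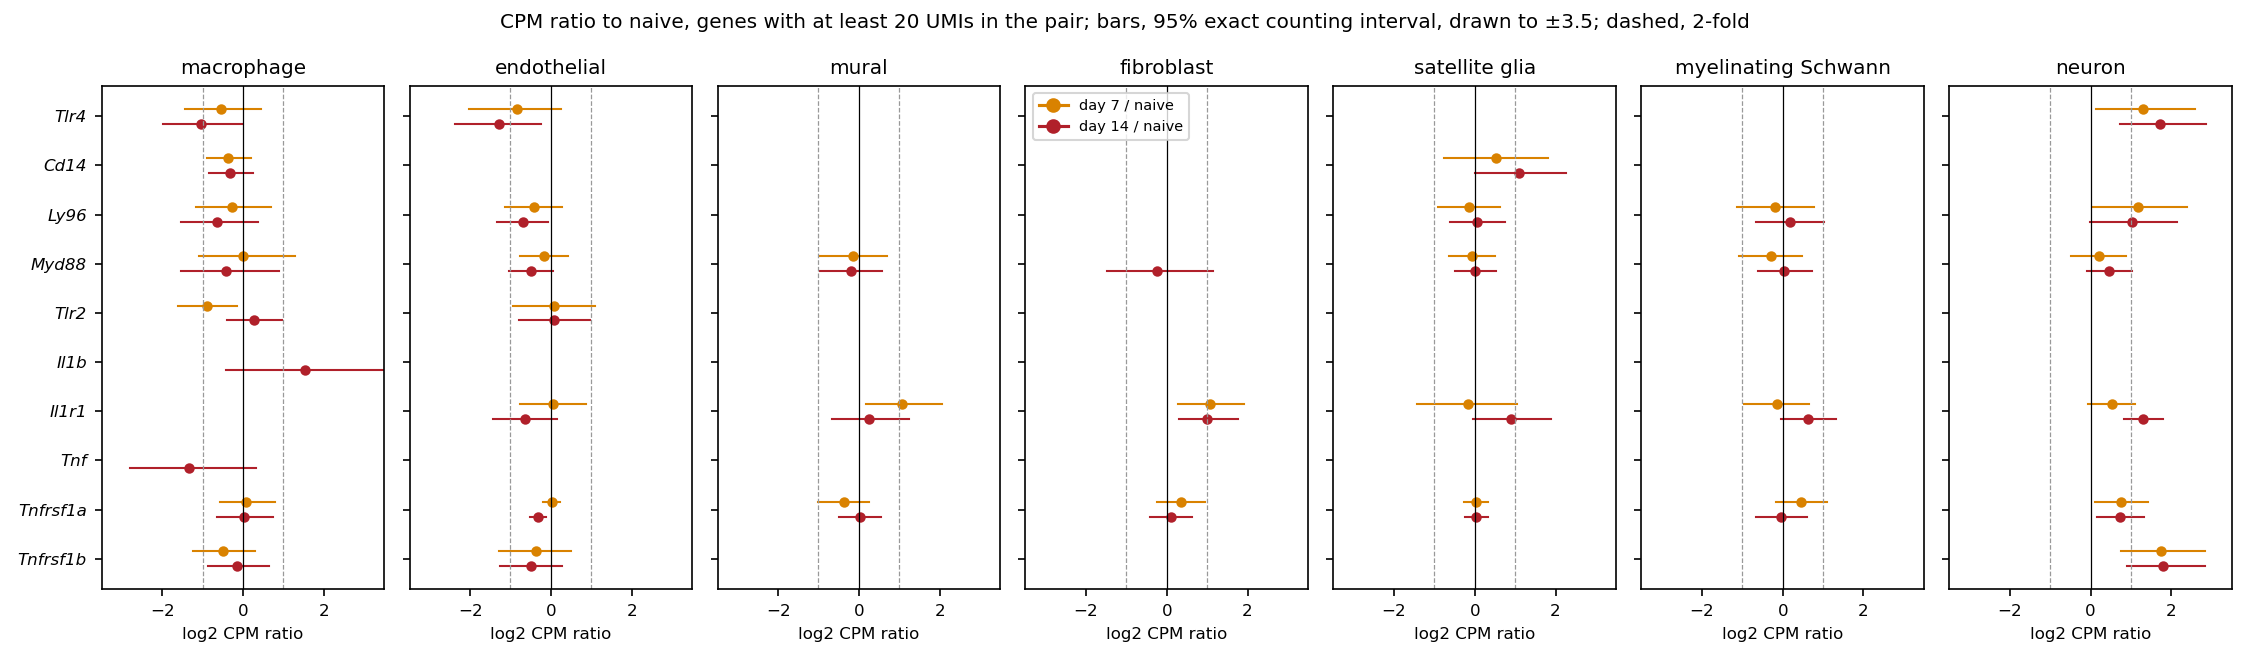
Log2 ratio of CPM, day 7 and day 14 over naive, for those of the 10 genes with at least 20 UMIs in the pair of libraries, in 7 cell classes, with exact 95% conditional intervals for counting error (bars cut at 3.5 either way) and dashed lines at 2-fold. Il1r1 lies at or beyond the upper line in fibroblast-like cells at both times, and the macrophage-like points of Tlr4 and Tnf lie below the lower line at day 14.

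Neuron-like cells held low levels of the receptors, with more of them past 2-fold than in any other class. Of 6 tested genes 3 were higher at day 7, where 5.93% of all genes were past 2-fold, and 4 at day 14, where 8.23% were. The higher genes were Tlr4, Ly96 and Tnfrsf1b at both times and Il1r1 at day 14. The median log2 ratio of the tested genes was 0.96 at day 7 and 1.15 at day 14, beside 0.03 and 0.09 for all genes in neurons. Tlr4, Ly96 and Tnfrsf1b had only 10, 11 and 12 naive UMIs, and reached the limit for testing only with the UMIs of the injured libraries. A limit on summed UMIs favours genes that are higher after injury when naive UMIs are few. All genes were not matched to these for UMIs, so the counts and medians beside them are descriptions only.

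Neuronal Tlr4 was 1.18 CPM (0.564 to 2.16) in the naive, 2.90 CPM (1.75 to 4.53) in the day 7 and 3.87 CPM (2.86 to 5.12) in the day 14 library. It came from 10 UMIs in 5 cells, 19 in 5 cells and 49 in 18 cells, with 4, 11 and 10 UMIs in the richest cell. The ratios were 2.47 (1.09 to 5.94) and 3.29 (1.65 to 7.29). All 78 neuronal Tlr4 UMIs, in 28 cells, lay in the 195 of 461 neurons with a UMI of Trpv1, the heat and capsaicin channel of nociceptors. Neurons of at least 10000 UMIs with no Trpv1 UMI held 0 Tlr4 UMIs in each library. The share of such deep neurons with Trpv1 was itself 46.7% of 107, 59.6% of 57 and 77.1% of 118 cells, so the mix of neurons differed between the libraries. Within the deep Trpv1-positive neurons Tlr4 was 2.55, 4.93 and 4.97 CPM, with ratios of 1.93 (0.856 to 4.66) and 1.95 (0.976 to 4.32). Both were short of 2-fold, and both intervals include no difference.

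Ly96 in neurons stood at 1.29, 2.90 and 2.61 CPM, with ratios of 2.24 (1.01 to 5.22) and 2.02 (0.994 to 4.42), the second interval including no difference. Tnfrsf1b gave 12 UMIs in 12 cells, 31 in 20 cells and 62 in 38 cells, or 1.41 CPM (0.729 to 2.46), 4.73 CPM (3.22 to 6.72) and 4.90 CPM (3.75 to 6.28). Both injured libraries lay above the naive interval, with ratios of 3.36 (1.68 to 7.18) and 3.47 (1.85 to 7.08). Within deep Trpv1-positive neurons the Tnfrsf1b level was 1.78, 3.89 and 5.07 CPM, ratios of 2.18 (0.837 to 6.32) and 2.84 (1.28 to 7.43), the first of which includes no difference. The 8 macrophage markers summed to 4.23, 35.6 and 17.8 CPM in the neuron-like class and were above 0 in each library. In macrophage-like cells there were 0.0209, 0.0158 and 0.0209 Tnfrsf1b UMIs for each C1qa UMI, against 2.40, 0.969 and 1.94 in neurons. The neuronal values rested on only 5, 32 and 32 C1qa UMIs. The part of macrophage-like RNA in the neuronal Tnfrsf1b level was not tested.

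Il1r1 was the neuronal member with the most UMIs that passed 2-fold, at 5.76, 8.25 and 14.1 CPM from 49, 54 and 179 UMIs in 29, 26 and 59 cells. The ratio was 1.43 at day 7 and 2.45 (1.78 to 3.44) at day 14. Counting each cell with equal weight lowered the day 14 log2 ratio from 1.30 to 0.45, under 2-fold. Within deep Trpv1-positive neurons Il1r1 was 4.59, 6.23 and 14.7 CPM, and within deep neurons without Trpv1 it was 6.42, 11.3 and 12.2 CPM, so that Il1r1, unlike Tlr4, was found on both sides of that split. The difference between these splits was not tested.

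The injury-induced genes Atf3 and Sprr1a divided the same deep neurons another way. A UMI of either was found in 24.3%, 66.7% and 58.5% of the deep neurons of the naive, day 7 and day 14 libraries. In neurons with Atf3 or Sprr1a, Il1r1 stood at 4.44, 9.78 and 17.7 CPM, with ratios of 2.20 and 3.99 (2.21 to 7.92). In those with neither it stood at 6.10, 3.65 and 8.24 CPM. Tnfrsf1a showed 2.59, 8.91 and 7.41 CPM in neurons with these genes, ratios of 3.44 and 2.86, and 5.05, 3.04 and 6.34 CPM in those without, with a day 7 ratio of 0.602 (0.182 to 1.57) and a day 14 interval from 0.728 to 2.17. Over all neurons it was 4.23, 7.18 and 7.03 CPM with ratios of 1.70 and 1.66, and with equal weight per cell the day 14 log2 ratio turned from 0.73 to -0.09. Tnfrsf1b was 1.48, 5.65 and 5.11 CPM with and 1.39, 1.22 and 4.65 CPM without Atf3 or Sprr1a. The levels of the 3 genes were thus higher than naive at both times in neurons that carried an injury transcript. In neurons without one, Il1r1 and Tnfrsf1a had 6 and 5 UMIs at day 7. The Il1r1 ratios there were 0.599 (0.206 to 1.44) and 1.35 (0.834 to 2.20). These intervals and those of Tnfrsf1a in the same neurons include no difference, so no direction is read there for either gene. Tnfrsf1b without an injury transcript had too few UMIs for a day 7 ratio, and its day 14 ratio was 3.34 (1.43 to 8.66). These neurons were split by transcripts that depend on depth and injury, and the split levels are descriptions.

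**Figure D4:**
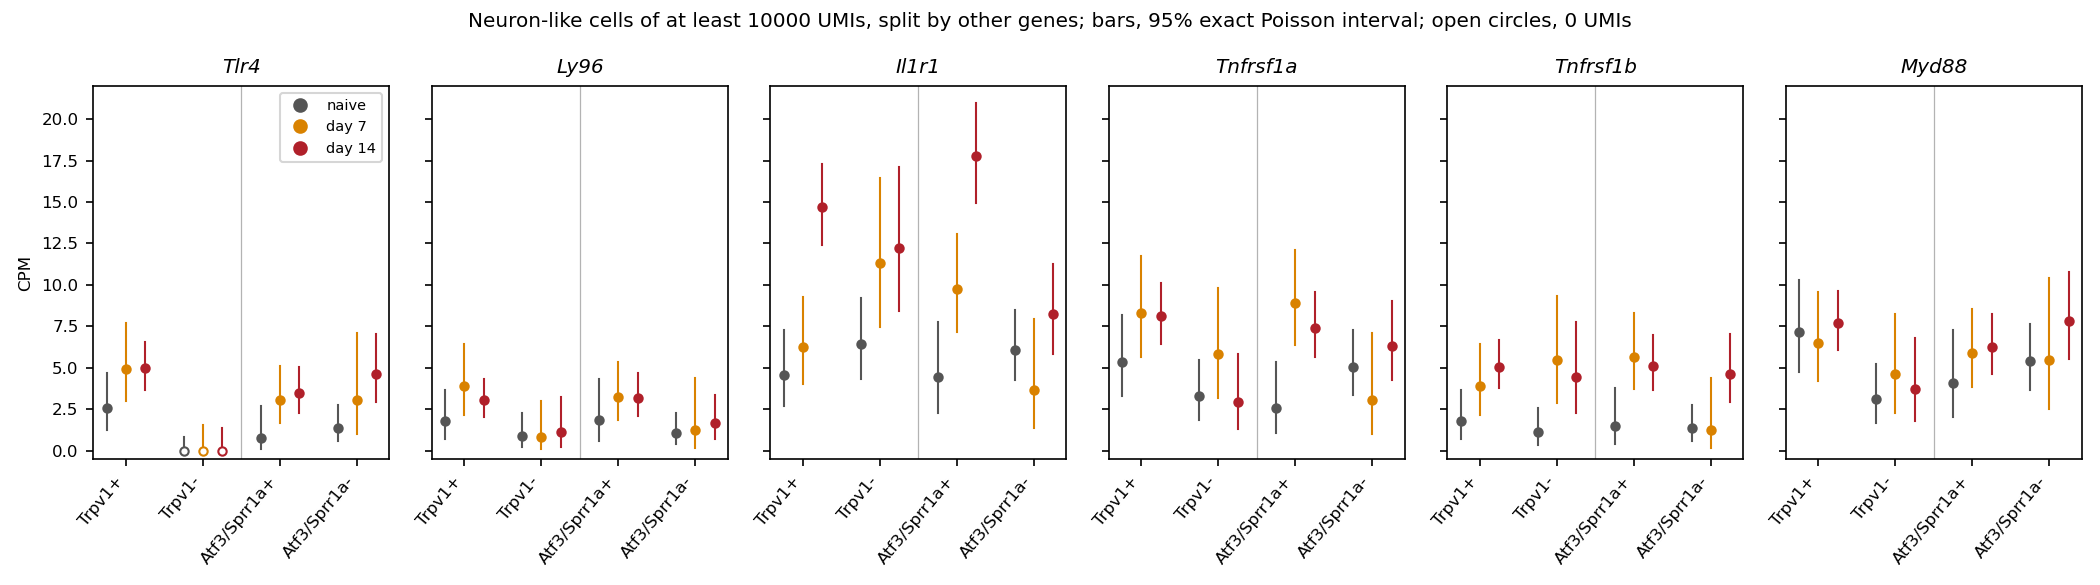
Levels of receptor genes in CPM in neuron-like cells of at least 10000 UMIs in the naive, day 7 and day 14 libraries, split by a Trpv1 UMI and by a UMI of Atf3 or Sprr1a, with exact 95% Poisson intervals for counting error. Tlr4 is at 0 in all 3 libraries in neurons without Trpv1, while Il1r1 has UMIs on both sides of each split.

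Summed over all kept cells, 4 of 9 tested genes were past 2-fold at day 7 (6.47% of all genes) and 4 of 10 at day 14 (7.26% of all genes). These were Cd14, with ratios of 4.21 and 3.02, Tlr2, with 2.20 and 2.88, Il1b, with 2.14 and 4.24, and Tnfrsf1b, with 2.46 and 2.30. All 4 were higher at both times, and the macrophage-like share of cells was higher as well (2.05%, 7.85% and 6.50%). Such sums mix the number of cells of a type with the level in each cell. Within the macrophage-like class the day 7 and day 14 ratios of Cd14, Tlr2 and Tnfrsf1b were between 0.537 and 1.20. The Il1b ratio there was 2.92 (0.754 to 25.0) at day 14, with too few UMIs for a ratio at day 7. Most Il1b UMIs came from neutrophil-like cells, which were 0.416%, 0.604% and 0.658% of the cells, so the macrophage-like share does not describe its sum. Il1r1 over all cells was 1.42 and 1.96, Tlr4 1.80 and 1.61, and Ly96, Myd88 and Tnfrsf1a between 1.04 and 1.38. Counted over classes, 5 of 34 gene and class pairs passed 2-fold at day 7, all higher, beside 5.23% of the pairs of all tested genes. At day 14 it was 10 of 38, of which 7 were higher and 3 lower, beside 7.07%.

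The wider pathway was read through gene lists, each counted over classes as gene and class pairs, to be read beside the 5.23% (day 7) and 7.07% (day 14) of all such pairs past 2-fold. Among 13 other Toll-like receptors and accessory proteins, 4 of 19 pairs were higher and 2 lower at day 7, and 2 of 19 higher at day 14. In macrophage-like cells these included Cd180, a TLR4-related surface protein, at 32.0, 93.9 and 108 CPM (2.94 and 3.38-fold), and Tlr7, the endosomal receptor for single-stranded RNA, at 57.6, 135 and 135 CPM (2.34 and 2.35-fold). Tlr4 and Tlr2 of the same cells were not higher at day 7. Ly86, which encodes the partner of Cd180, stood at 614, 765 and 543 CPM in macrophage-like and at 683, 883 and 363 CPM in neuron-like cells. Among 17 adaptors and kinases downstream of the receptors, 3 of 92 pairs were higher and 2 lower at day 7, and 2 of 104 higher and 1 lower at day 14.

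Among 12 genes of the IL-1 family, its decoys and its processing, 3 of 20 pairs were higher at day 7 (5.23% of all pairs past 2-fold) and 1 of 22 at day 14 (7.07%). Pycard, the inflammasome adaptor, was 2.34-fold higher (1.20 to 5.23, from 9 naive UMIs) in macrophage-like cells at day 7. Nlrp3 stood at 57.6, 62.3 and 66.7 CPM there, beside the rare Il1b. Il1rap, the second chain of the IL-1 receptor, stood at 10.5, 16.3 and 18.9 CPM in fibroblast-like cells, below their Il1r1 by UMIs of a 3′ assay. Among 8 TNF-related genes, 2 of 27 pairs were higher and 2 lower at day 7, and 5 of 33 higher and 1 lower at day 14, against the same shares of all pairs. Tnfrsf12a, the TWEAK receptor, was higher in neurons at 1.65, 13.4 and 8.37 CPM (8.17 and 5.09-fold), and Tnfsf10, which encodes the ligand TRAIL, was lower in macrophage-like cells at 76.8, 20.4 and 10.1 CPM.

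Among 14 NF-kB subunits, feedback and target genes, 1 of 65 pairs was higher and 1 lower at day 7, and 5 of 78 were higher at day 14, no larger a share than the 5.23% and 7.07% of all pairs. Nfkbiz, a nuclear NF-kB regulator, was higher in neurons at 1.41, 8.55 and 5.06 CPM (6.06 and 3.58-fold). In the classes with the most Il1r1 the higher genes at day 14 were Tnfaip2 (10.2-fold from 1 naive UMI) and Nfkb2 (4.07-fold from 2 naive UMIs) in fibroblast-like and Relb (6.37-fold from 2 naive UMIs) in mural-like cells. Nfkbia, the NF-kB inhibitor, was lower in fibroblast-like cells at day 7, at 115, 52.1 and 123 CPM in the 3 libraries, with a day 7 ratio of 0.452 (0.232 to 0.845). Among 10 immediate early and heat shock genes, which respond to dissociation, 7 of 64 pairs were higher and 9 lower at day 7, and 19 of 74 higher and 10 lower at day 14.

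The genes most like each member were named from Pearson's r of log2(CPM + 1) over 23 class and library points, among 13860 genes. Cd14 was most like Syk (r = 0.97), Dock2 and Cd48, genes of hematopoietic cells. Tlr2 was closest to Hacd4 (r = 0.96), Hcls1 and Rps28, Tnfrsf1b to Arhgap25 (r = 0.95), with Alox5ap also among its nearest, and Tlr4 to H2-M3 (r = 0.91), Fam111a and Man2a1. Ly96 was closest to Rbbp8 (r = 0.90), Arid4a and Lyn, and Hlx (r = 0.93) and Rcsd1 were among the nearest to Myd88. Il1r1 was closest to Trabd2b (r = 0.90), Dnm3os and Etnk2, and Tnfrsf1a to Sp3 (r = 0.95), Zfp36l1 and Itpr2. For Il1b (Btk, Gpr132 and Rnase6, r = 0.99) and Tnf (Gpr141, Klra2 and Bcl2a1d, r of 0.98 to 0.99) the value rested on few UMIs outside macrophage-like cells. The points left out the monocyte-like and lymphocyte-like classes and the neutrophil-like class, which carried most of the Il1b UMIs. The likeness given for Il1b thus does not cover its main source. The points share libraries and depth, so these values only describe.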

How the data were processed

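Single-cell suspensions of L3 and L4 DRGs were sequenced as 3 libraries, naive, SNI day 7 and SNI day 14. The authors deposited raw UMI counts per gene and barcode, made with Cell Ranger 3.0.2 on mm10 according to the submitters' processing notes; the annotation, strand setting and any depth equalisation between libraries are not given in the sources used here. The deposited counts were used unscaled. Depth was 23107376, 22343246 and 36550911 UMIs over all barcodes.

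Barcodes entered with 500 or more detected genes and mitochondrial UMIs of no more than 20% (9662 cells), and 90 doublets (0.931%) called by Scrublet were removed. Each cell's class was that with the highest marker score (mean of scaled log counts over the class markers), if at least 3 markers were detected and the score was 1.25 times the next; 293 cells lay near that limit and 222 had exactly 3 markers. UMIs were summed per class and library and divided by the class total to give CPM. Levels, shares and ratios were described with exact intervals, with no test between conditions. Intervals treat UMIs as independent. Genes were described as higher or lower from 2-fold among genes with at least 20 UMIs over both libraries, in classes of at least 50 cells. The 10 genes, the class markers and the pathway lists were chosen with earlier results of these data known. Genes named from a pathway list were at most 3 in each direction per list and class past 2-fold, ranked by the counting bound nearest to no change, and 3 genes per member were named for likeness among genes with at least 100 UMIs, of which 2 are not reported here; Ly86, Nlrp3, Il1rap, Fos, C1qa, Trpv1, Atf3 and Sprr1a were given for context after their values were seen. Alternatives were the cell filter, doublets, gate, clustering, scaling, thinning, equal weight per cell and the UMI minimum; leaving out shallow neurons and the richest cell of each gene was added after seeing the data. Scripts were tested on simulated data. Gene positions came from GENCODE vM21, which held 30934 of the 31053 identifiers. Python 3.11.15, numpy 2.4.6, scipy 1.17.1, pandas 2.3.3, scanpy 1.11.5, leidenalg 0.10.2 and matplotlib 3.10.9 were used.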

Additional observations from a re-analysis of the deposited data

How the results depend on the processing

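No paired analysis was possible because naive, day 7 and day 14 are 1 library each, with no second replicate to pair. The number of gene and class pairs past 2-fold was 5 at day 7 and 10 at day 14. It was 3 at day 7 with the stricter cell filter (at least 1000 genes, at most 10% mitochondrial UMIs), 3 and 5 with equal weight per cell, 1 and 0 with cells thinned to 2000 UMIs, 0 and 2 with at least 100 UMIs of the gene, and 17 at day 14 with at least 1 UMI. The strict filter, the thinning and the 100-UMI limit left fewer pairs tested. The stricter filter and the thinning left under 50 naive macrophage-like cells, so that 0 genes had an immune class highest there. With neurons under 10000 UMIs left out the numbers were 5 and 10, and without the richest cell of each gene 4 and 8. No ratio past 2-fold changed sign under the alternatives that could give it, while 41 of 722 recomputed ratios did, all of ratios short of 2-fold. Of 72 ratios, 3 left their counting interval with equal weight per cell (Il1r1 and Tnfrsf1a in neurons at day 14, log2 0.45 and -0.09, and Tnfrsf1a in endothelial-like cells at day 7, -0.28) and 2 with thinning (endothelial-like Tnfrsf1a, -0.19 and -0.61). The causes were not tested. Tnf, Il1b in macrophage-like cells and Tlr4 in naive neurons were among the values that rested on few UMIs.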
